A study of Mus musculus with 11 samples.

Results

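The genes described here are 35 mouse heat shock proteins and chaperones, chosen by name and grouped by where their products work in the cell. Of the 35, 33 had a microarray probe set annotated to that gene alone, and all 33 lay above the filter on dim genes, out of 13710 genes that passed it over the whole series. Hsp90ab1, the constitutive cytosolic HSP90, and Hsf1, the main heat shock transcription factor, were not analysed here. The 33 measured genes comprised 8 cytosolic HSP70 family genes, 5 genes of cytosolic HSP90 and its co-chaperones, 6 of cytosolic J-proteins and Bag3, 3 mitochondrial chaperones, 4 chaperones of the endoplasmic reticulum (ER), 6 small heat shock proteins and the heat shock factor Hsf2.

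Gene expression was measured in whole skin of 11 mice. The drug, ABBV-075 or mivebresib, blocks the bromodomains of BET proteins and was given at 1 mg/kg, and skin was taken 6 h later from 4 mice and 24 h later from another 4. Skin of 3 mice given vehicle served as the control for both times, so the comparisons at 6 h and 24 h share these 3 arrays, and the time at which vehicle skin was collected is not given in the sources used here. Strain, sex and age are not given there either. Total RNA was amplified from the 3′ end and hybridised to Affymetrix arrays, 1 array per mouse.

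Heat shock proteins are chaperones that bind unfolded proteins and help them fold, refold or reach degradation. HSP70s bind exposed hydrophobic stretches in a cycle driven by ATP, J-proteins (HSP40s) deliver substrates and start the cycle, nucleotide exchange factors end it, and HSP90 takes over client proteins at a later stage. Many of these genes are switched on when heat shock factor 1 forms trimers that bind inverted repeats of the bases GAA, the heat shock element, in their promoters, while ER chaperones respond to unfolded protein in the ER through a different sequence, the ER stress element. BET proteins bind acetylated histones and help release paused RNA polymerase II, and the heat shock genes of Drosophila are a classic example of genes with a paused polymerase.

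Promoter sequences are shown for examples of each element, since they show where the elements lie. Of the 4 genes with the smallest p at 6 h, Hspa1b and Hsph1 are among them, neither of the 2 starts of Dnajb1 held any of the elements searched, and Hsp90aa1 is named without a sequence. They are RefSeq promoters on GRCm38.p6 (250 bases before to 50 bases after a start site, 35 starts of 27 of the genes). A pair of inverted units, GAANNTTC or TTCNNGAA, stood in 15 of these 35 promoters, against 15.1% of all 32851 promoters in the table. A run of 3 such units in alternating orientation, 2 bases apart, stood in 7 of the 35, against 0.603% of all promoters. Each 2-unit pattern reads the same on both strands, and the 3-unit run was searched in both orders, which covers both strands. The 2-unit pattern is contained in the 3-unit one. Capitals mark the element, 5′ to 3′ on the strand of the gene.
Hspa1b, chr17:34959299-34959388, minus strand: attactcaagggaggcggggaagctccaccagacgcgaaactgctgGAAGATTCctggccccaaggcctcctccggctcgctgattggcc
Hspa1a, chr17:34972217-34972306, minus strand: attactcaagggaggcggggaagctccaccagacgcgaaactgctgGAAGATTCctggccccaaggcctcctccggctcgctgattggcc
Hsph1, chr5:149636337-149636426, minus strand: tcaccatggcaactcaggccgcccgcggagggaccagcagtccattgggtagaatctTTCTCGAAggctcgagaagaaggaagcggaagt
Chordc1, chr9:18292256-18292285, plus strand: gcaaccgGAACGTTCGGGAAAATTCCTGAA
Hspe1, chr1:55088018-55088107, plus strand: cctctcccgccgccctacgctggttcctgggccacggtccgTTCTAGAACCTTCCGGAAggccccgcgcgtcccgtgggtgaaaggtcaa
Hspb1, chr5:135887769-135887858, plus strand: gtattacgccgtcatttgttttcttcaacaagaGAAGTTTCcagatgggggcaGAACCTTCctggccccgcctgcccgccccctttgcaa

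Hspa1a and Hspa1b are neighbouring, near-identical genes on chromosome 17, and the stretch shown is the same in both; over the 250 bases before the start they matched at 98.8% of positions. Each carried a 2-unit element 104 bases before its start. The element of Chordc1 had 5 units, more than the others shown, and that of Hspe1 had 4. Hspe1 and Hspd1, whose products form the mitochondrial chaperonin, are neighbours on chromosome 1 that read in opposite directions, and the 4 units shown for Hspe1 are the same bases as those in the promoter of Hspd1. Hspb1 had 2 separate pairs, 117 and 97 bases before its start. Hsph1, Dnajb6, Hspd1, Hspe1 and Chordc1 were the genes with a 3-unit run, which for Hsph1 lay after the start and is not in the stretch shown.

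The ER stress element, CCAAT and CCACG with 9 bases between them, searched on both strands, stood in the promoters of 3 of the 4 ER genes and in 0.119% of all promoters, while none of the 4 had a heat shock pair. A match is a description of the letters and not of a bound site.
Hspa5, chr2:34771990-34772079, plus strand: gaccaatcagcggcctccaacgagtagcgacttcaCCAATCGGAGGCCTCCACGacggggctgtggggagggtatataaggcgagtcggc
Hsp90b1, chr10:86705602-86705691, minus strand: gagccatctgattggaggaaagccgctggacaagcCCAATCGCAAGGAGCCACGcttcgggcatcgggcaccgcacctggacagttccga
Dnajc3, chr14:118937792-118937881, plus strand: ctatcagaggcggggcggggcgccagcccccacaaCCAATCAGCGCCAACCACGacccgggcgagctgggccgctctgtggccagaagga

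The arrays differed in brightness before normalization. Their trimmed mean intensity was 82.8 to 244 at 6 h, 116 to 183 at 24 h and 205 to 244 in vehicle skin. The ratio of the 5′ to the 3′ probe set of the actin control, which is low when the labelled RNA is short, was 0.0725 to 0.425 at 6 h, 0.198 to 0.529 at 24 h and 0.484 to 0.593 in vehicle skin. Replicate 5 at 6 h stood apart with the lowest actin ratio and a Gapdh ratio of 0.104, and the 6 h differences printed for chaperone genes that move by over 1.5 times without it are given both ways. Markers of skin were present, with Krt10 of the suprabasal epidermis at a mean of 13.38, 13.09 and 13.52 and Krt14 of the basal layer at 12.10, 12.17 and 11.80 log2 units at 6 h, at 24 h and in vehicle skin. All levels below are log2(intensity + 16) after quantile normalization, and a difference of 1 is a doubling for bright genes. In whole skin, fewer cells of a type and less RNA per cell cannot be told apart.

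No chaperone gene passed the test at 6 h or 24 h. At 6 h, 20 of 33 were higher than in vehicle skin and 13 lower, with a median difference of 0.10, and 50.4% of all genes were higher, with a median of 0.0037. The called share of all genes was 0% (0 of 13710 at an adjusted p under 0.05, limma with Benjamini-Hochberg adjustment over all genes). At an unadjusted p under 0.05, 4 of the 33 were higher and 0 lower, a share of 12.1% against 8.02% of all genes for the higher direction and 8.05% for the lower. The 4 were Hsp90aa1, Hspa1b, Hsph1 and Dnajb1, all cytosolic. In 7 of the 33, or 21.2%, the 6 h arrays all lay above the vehicle arrays without overlap, as was so for 9.77% of all genes, and in 1, Bag3, they all lay below, as for 8.77% of all genes.

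At 24 h, 21 of the 33 were higher and 12 lower than in vehicle skin, with a median difference of 0.050, while 47.6% of all genes were higher. Again 0% of all genes passed the adjusted test, and at an unadjusted p under 0.05 there was 1 higher member, Hsph1, against 3.16% of all genes, and no lower one, against 4.47%. In 2 members, Hsph1 and Chordc1, the 24 h arrays all stood higher than the vehicle arrays, a share of 6.06% against 5.09% of all genes, and in none did they all stand lower, against 6.02%. The higher share is close to the background.

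These directions depend on the normalization. With the intensities as deposited, the median of all genes was itself -0.68 at 6 h and -0.62 at 24 h, 1 of the 33 was above 0 at 6 h and none at 24 h, and 855 genes (6.24%) were called at 6 h. Set against that median gene, 20 of the 33 and 7 of the 8 HSP70 family genes lay above it at 6 h, and 17 of the 33 and 5 of the 8 at 24 h. When limma weighted each array by its spread around its group mean, 6 of the 33 were called at 6 h. They were Hsp90aa1 (0.62, adjusted p = 0.010), Hspa1b (0.64, adjusted p = 0.021), Stip1 (0.58, adjusted p = 0.023), Dnajb1 (0.38, adjusted p = 0.037) and Hsph1 (0.41, adjusted p = 0.038), all higher, and St13 (-0.47, adjusted p = 0.042). The same weighting called 2498 genes, or 18.2%, and 6 of 33 is also 18.2%. It gave vehicle replicate 3 a weight of 4.85, against 0.66 and 1.54 for vehicle replicates 1 and 4. The vehicle level in that fit therefore leaned on replicate 3, and replicate 5 at 6 h had a weight of 0.30.

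**Figure D1:**
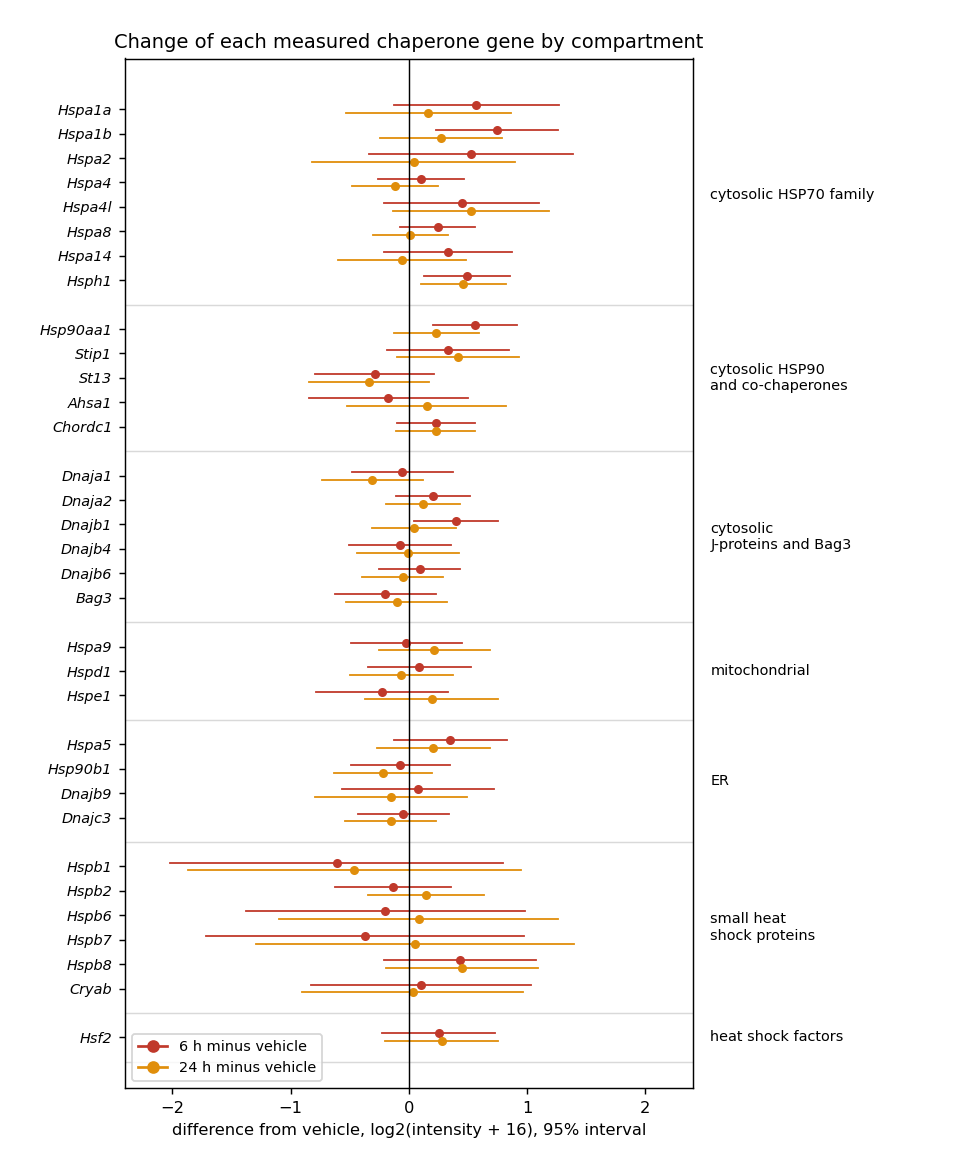
Difference from vehicle skin of each of the 33 measured genes, in log2(intensity + 16), with 95% intervals from limma, at 6 h (red) and 24 h (orange), grouped by compartment. At 6 h the points of all 8 cytosolic HSP70 family genes lie right of 0, and the small heat shock proteins Hspb1, Hspb6, Hspb7 and Cryab have the widest intervals.

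The cytosolic HSP70 family was the only compartment group of more than 1 gene with the same direction at 6 h for every member. A shared direction was not particular to it. At 6 h all 9 basal keratinocyte genes were higher and all 12 macrophage and dendritic cell genes were lower. All 8 genes were higher at 6 h than in vehicle skin, by 0.11 to 0.75, with a median of 0.47. Of the 8, 2 had an unadjusted p under 0.05, against 8.02% of all genes, and 3 stood above vehicle skin without overlap, against 9.77% of all genes. The count of 8 of 8 held in each of the fits that left out 1 array, with a median of 0.35 to 0.55, and the median was 0.47 without replicate 5. With arrays scaled to a common median, 7 of the 8 were above 0 at 6 h. At 24 h, 6 of the 8 were higher, with a median of 0.10, and the fits without 1 array gave 4 to 6 with medians of 0.021 (without vehicle replicate 1) to 0.26.

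Hspa1b encodes an inducible cytosolic HSP70 that is scarce in unstressed cells and rises after heat. In vehicle skin here its signal was not low, with a mean of 11.63 against a filter at 5.21. Its level was 12.67, 12.39, 11.93 and 12.51 at 6 h, 11.88, 11.97, 11.51 and 12.24 at 24 h, and 11.27, 11.79 and 11.82 in vehicle skin. The 6 h arrays all stood higher than the vehicle arrays, the lowest of them by a small margin, whereas the 24 h arrays overlapped the vehicle arrays. The difference was 0.75 ± 0.24 (SE) at 6 h, a 1.68-fold higher level with a 95% interval of 0.23 to 1.26 on the log2 scale and an adjusted p of 0.197. At 24 h it was 0.27 ± 0.24 (adjusted p = 0.777). Without 1 array at a time, the 6 h difference ran from 0.57 to 0.89. The other 2 probe sets of Hspa1b were 0.45 and 0.69 higher at 6 h.

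Hspa1a encodes a nearly identical protein, and the probe sets of the pair may share signal, so their levels cannot be fully separated. Its level was 10.01, 9.35, 8.67 and 9.22 at 6 h, 8.86, 8.53, 8.77 and 9.47 at 24 h, and 8.35, 9.05 and 8.82 in vehicle skin. Replicate 1 at 6 h was the highest of the 11 and replicate 3 at 6 h lay within the vehicle range. The difference at 6 h was 0.57 ± 0.32 (SE, adjusted p = 0.405), and 0.34 without replicate 1 at 6 h. At 24 h it was 0.16 ± 0.32 (adjusted p = 0.909). Over the 11 arrays the levels of Hspa1a and Hspa1b had a Pearson correlation of 0.843 (permutation p = 8.8e-04, adjusted p = 0.0026 over 3 neighbouring pairs, and Spearman rho = 0.709, permutation p = 0.018), 0.778 without the 2 arrays farthest from the median of Hspa1a and 0.805 within groups.

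Hsph1 encodes HSP110, a relative of HSP70 that serves as its nucleotide exchange factor. Its level was 9.19, 9.15, 9.06 and 9.10 at 6 h, 9.13, 9.32, 8.80 and 9.13 at 24 h, and 8.46, 8.79 and 8.64 in vehicle skin. All 8 ABBV-075 arrays lay above the 3 vehicle arrays, replicate 3 at 24 h only just. The difference was 0.49 ± 0.16 at 6 h (SE, adjusted p = 0.214) and 0.46 ± 0.16 at 24 h (adjusted p = 0.568). Between 24 h and 6 h it was -0.029 ± 0.15 (adjusted p = 0.980). A second, dimmer probe set of Hsph1 gave 0.11 at 6 h and 0.41 at 24 h.

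Hspa8 encodes HSC70, the constitutive cytosolic HSP70. Its level was 13.10, 13.03, 13.09 and 13.28 at 6 h, 12.73, 13.02, 12.87 and 12.97 at 24 h, and 12.87, 12.92 and 12.87 in vehicle skin. The 6 h arrays lay above the vehicle arrays without overlap, replicate 5 highest, and the 24 h arrays lay on both sides of them. The difference was 0.24 ± 0.14 at 6 h (SE, adjusted p = 0.429) and 0.013 ± 0.14 at 24 h (adjusted p = 0.986). Without replicate 5 the 6 h difference was 0.19. The level of Hspa8 was lower on arrays with a higher actin 5′ to 3′ ratio (Pearson r = -0.824, permutation p = 0.0017, adjusted p = 0.0246 over 99 relations, and Spearman rho = -0.779, permutation p = 0.0066), and r was -0.734 without the 2 arrays farthest from the median ratio. Within groups, as deviations from the group means, r was -0.811. With the actin ratio as a covariate, the difference of Hspa8 at 6 h was 0.083 (adjusted p = 0.856). Since the ratio did not overlap between 6 h and vehicle arrays, this fit cannot tell it apart from the drug.

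The other 4 genes of the family were also higher at 6 h. Hspa4l, an HSP110 relative, averaged 7.78 ± 0.28 at 6 h, 7.86 ± 0.56 at 24 h and 7.34 ± 0.35 in vehicle skin (SD, n = 4, 4 and 3), with differences of 0.45 (adjusted p = 0.488) and 0.53 (adjusted p = 0.680). Its arrays read 7.52, 8.16, 7.64 and 7.81 at 6 h, 7.43, 8.47, 7.35 and 8.21 at 24 h, and 7.06, 7.22 and 7.73 in vehicle skin, so both ABBV-075 groups overlapped vehicle skin. Other probe sets of Hspa4l, of similar brightness, gave 0.15, 0.28, 0.29 and 0.24 at 6 h, and -0.051, 0.15, 0.40 and 0.35 at 24 h. The set used thus had the largest difference at both times. Hspa2, a member best known from germ cells, differed by 0.52 ± 0.39 at 6 h, 0.31 without replicate 1 at 6 h, and by 0.040 ± 0.39 at 24 h. Hspa14, which acts at the ribosome, differed by 0.33 ± 0.25 at 6 h, 0.21 without replicate 5, and by -0.059 ± 0.25 at 24 h. Hspa4, another HSP110 relative, differed by 0.11 ± 0.17 at 6 h and -0.12 ± 0.17 at 24 h (SE in each, none called). Its 6 h value was 0.21 without replicate 5 and 0.035 without replicate 1. Other probe sets of Hspa4 above the filter gave 0.31 and -0.93 at 6 h, and 0.034 and -0.40 at 24 h.

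**Figure D2:**
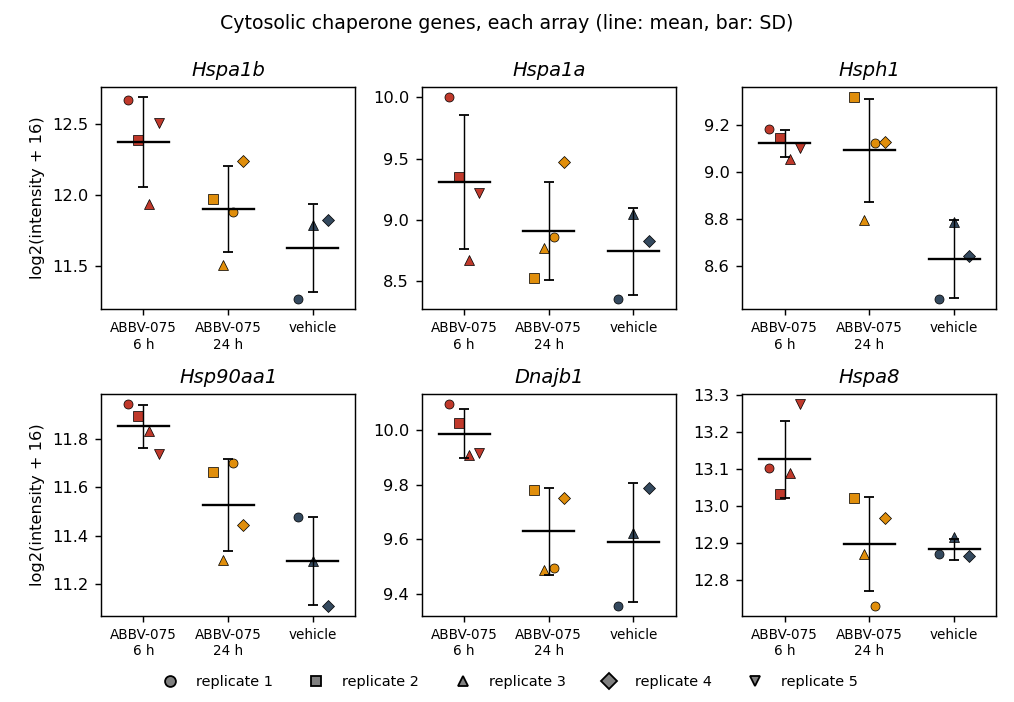
Level of 6 cytosolic chaperone genes on each array, in log2(intensity + 16), for ABBV-075 at 6 h and 24 h and for vehicle skin, with the mean (line) and SD (bar) of each group and a marker for each replicate number. In Hspa1b, Hsph1, Hsp90aa1, Dnajb1 and Hspa8 every 6 h point lies above every vehicle point, and in Hsph1 the 24 h points do so too.

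Among HSP90 and its co-chaperones, 3 of 5 genes were higher at 6 h and 4 of 5 at 24 h, with medians of 0.23 and 0.23. Hsp90aa1, the stress-inducible cytosolic HSP90, read 11.95, 11.90, 11.83 and 11.74 at 6 h, 11.70, 11.66, 11.30 and 11.44 at 24 h, and 11.48, 11.29 and 11.11 in vehicle skin. The 6 h arrays lay above all others, and the 24 h arrays overlapped vehicle skin. The difference was 0.56 ± 0.16 at 6 h (SE, 1.47-fold, 95% interval 0.20 to 0.92, adjusted p = 0.180), the smallest p of the 33 genes, and 0.23 ± 0.16 at 24 h (adjusted p = 0.736). Leaving out 1 array at a time gave 0.47 to 0.65 at 6 h. Of the 4 other probe sets of Hsp90aa1, 3 above the filter were 0.48, 0.48 and 0.94 higher at 6 h.

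Stip1 encodes HOP, which links HSP70 to HSP90 so that a client can pass between them. Its level was 8.99, 8.91, 8.91 and 8.10 at 6 h, 8.83, 8.89, 8.49 and 9.04 at 24 h, and 8.50, 8.20 and 8.49 in vehicle skin. Replicate 5 at 6 h lay below all vehicle arrays and the other 3 above them. The difference was 0.33 ± 0.23 at 6 h (SE, adjusted p = 0.511), 0.54 without replicate 5, and 0.42 ± 0.23 at 24 h (adjusted p = 0.680). St13, or HIP, which stabilises HSP70 bound to its client, was lower at both times, with -0.29 ± 0.23 and -0.34 ± 0.23. Chordc1, an HSP90-binding protein with the 5-unit element shown above, read 9.74, 9.97, 9.79 and 9.89 at 6 h, 9.85, 10.05, 9.75 and 9.74 at 24 h, and 9.47, 9.74 and 9.65 in vehicle skin. Its groups did not overlap at either time, although the highest vehicle array stood at the level of the lowest ABBV-075 arrays, and the differences were 0.23 ± 0.15 at both times (adjusted p = 0.477 and 0.722). Ahsa1, which stimulates the ATPase of HSP90, differed by -0.17 ± 0.31 at 6 h, 0.0021 without replicate 5, and by 0.15 ± 0.31 at 24 h.

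Of the cytosolic J-proteins and Bag3, 3 of 6 were higher at 6 h and 2 of 6 at 24 h, with medians of 0.018 and -0.030. Dnajb1, the stress-inducible HSP40 that works with HSP70, read 10.10, 10.03, 9.91 and 9.92 at 6 h, 9.50, 9.78, 9.49 and 9.75 at 24 h, and 9.36, 9.62 and 9.79 in vehicle skin. The 6 h arrays stood above all arrays of both other groups, and the 24 h and vehicle arrays covered the same range. The difference was 0.40 ± 0.16 at 6 h (SE, 1.32-fold, 95% interval 0.042 to 0.75, adjusted p = 0.272) and 0.040 ± 0.16 at 24 h (adjusted p = 0.960). Its second probe set was 0.53 higher at 6 h.

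Dnaja1, a farnesylated HSP40, averaged 10.52 ± 0.15 at 6 h, 10.26 ± 0.33 at 24 h and 10.57 ± 0.09 in vehicle skin (SD, n = 4, 4 and 3). Its 24 h arrays read 10.48, 10.53, 10.24 and 9.80, against 10.59, 10.48 and 10.65 in vehicle skin, and the 6 h arrays read 10.74, 10.46, 10.44 and 10.44. The groups overlapped, with replicate 4 at 24 h lowest. The difference at 24 h was -0.31 ± 0.19 (SE, adjusted p = 0.704), -0.16 without replicate 4, and 1 of the 2 other probe sets of Dnaja1 had the opposite sign at both times (0.31 and 0.22).

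Dnaja2, a close relative, was 0.20 ± 0.14 higher at 6 h (adjusted p = 0.507) without overlap of the groups, at 11.39 to 11.53 at 6 h against 11.14 to 11.37 in vehicle skin. Other probe sets of Dnaja2, all above the filter, gave -0.11, 0.021 and 1.09 at 6 h. Bag3, an exchange factor that directs clients of HSP70 and HSPB8 to autophagy and is itself a heat shock gene, was lower at 6 h. Its level was 8.59 to 8.87 at 6 h and 8.87 to 8.98 in vehicle skin, which met without overlap, and the difference was -0.20 ± 0.19 (adjusted p = 0.639). Dnajb6 and Dnajb4, which hold back aggregation of client proteins, differed by 0.092 ± 0.16 and -0.072 ± 0.20 at 6 h and by -0.051 ± 0.16 and -0.0090 ± 0.20 at 24 h. Without replicate 5 the 6 h difference of Dnajb6 was 0.014.

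The only heat shock factor analysed, Hsf2, was dim, at 5.91 ± 0.26 at 6 h, 5.93 ± 0.34 at 24 h and 5.66 ± 0.15 in vehicle skin (SD, n = 4, 4 and 3), on a scale whose floor is 4 and whose filter lay at 5.21. Its differences of 0.25 and 0.28 had adjusted p-values of 0.595 and 0.758.

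The mitochondrial chaperones did not move together. Hspd1 encodes HSP60, the barrel of the mitochondrial chaperonin, and read 10.89, 10.62, 10.40 and 10.16 at 6 h, 10.31, 10.13, 10.46 and 10.55 at 24 h, and 10.32, 10.62 and 10.34 in vehicle skin. The groups overlapped, with differences of 0.090 ± 0.20 at 6 h and -0.064 ± 0.20 at 24 h (SE, adjusted p = 0.849 and 0.947), and the 6 h difference was 0.21 without replicate 5 and -0.034 without replicate 1. Hspe1 encodes HSP10, the lid of the same chaperonin, and read 10.16, 10.63, 11.02 and 10.90 at 6 h, 10.92, 11.62, 11.12 and 10.73 at 24 h, and 10.81, 11.11 and 10.79 in vehicle skin. The difference was -0.23 ± 0.26 at 6 h (adjusted p = 0.684) and 0.19 ± 0.26 at 24 h (adjusted p = 0.860), where it was 0.016 without replicate 2 at 24 h. The levels of this pair, which share a promoter region, had a correlation of -0.704 over the 11 arrays (permutation p = 0.018, adjusted p = 0.027, and rho = -0.464, permutation p = 0.15), which rested on 2 arrays, since r was -0.055 without the 2 farthest from the median of Hspd1. Hspa9, mortalin or the mitochondrial HSP70, differed by -0.020 ± 0.22 at 6 h, 0.088 without replicate 5, and by 0.22 ± 0.22 at 24 h, and its second brightest probe set by 0.33 and 0.42.

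In the ER, by their brightest probe sets, 2 of 4 chaperones were higher at 6 h and 1 of 4 at 24 h. Hspa5, or BiP, the HSP70 of the ER and a standard readout of the unfolded protein response, read 11.63, 11.58, 12.08 and 12.02 at 6 h, 11.73, 12.09, 11.58 and 11.35 at 24 h, and 11.74, 11.30 and 11.40 in vehicle skin. Replicates 3 and 5 at 6 h lay above all vehicle arrays and the other 6 h arrays lay within their range. The difference was 0.35 ± 0.22 at 6 h (SE, adjusted p = 0.451) and 0.21 ± 0.22 at 24 h (adjusted p = 0.824). Like Hspa8, it was lower on arrays with a higher actin ratio (r = -0.798, permutation p = 0.0030, adjusted p = 0.0326, r = -0.664 without the 2 farthest arrays and -0.714 within groups, and rho = -0.664, permutation p = 0.031).

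Hsp90b1, or GRP94, the HSP90 of the ER, differed by -0.071 ± 0.19 at 6 h and -0.22 ± 0.19 at 24 h. A second bright probe set of Hsp90b1 had the opposite sign at both times (0.095 and 0.32). Dnajb9, an ER J-protein that assists degradation of misfolded proteins, differed by 0.076 ± 0.29 and -0.15 ± 0.29, and Dnajc3, or p58IPK, by -0.047 ± 0.17 and -0.15 ± 0.17. Without replicate 5 the 6 h differences of these last genes were -0.11 and 0.040. Other probe sets of Dnajc3 gave 0.012, -0.41, 0.12 and -0.41 at 6 h, and 0.15, -0.10, 0.047 and -0.30 at 24 h. By their brightest probe sets, the 3 ER genes with the element shown above thus had differences of -0.071 to 0.35 at 6 h. Replicate 4 at 24 h had the lowest mean of the 4 ER genes, -0.46 relative to the vehicle mean, against -0.062 to 0.10 in vehicle skin.

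**Figure D3:**
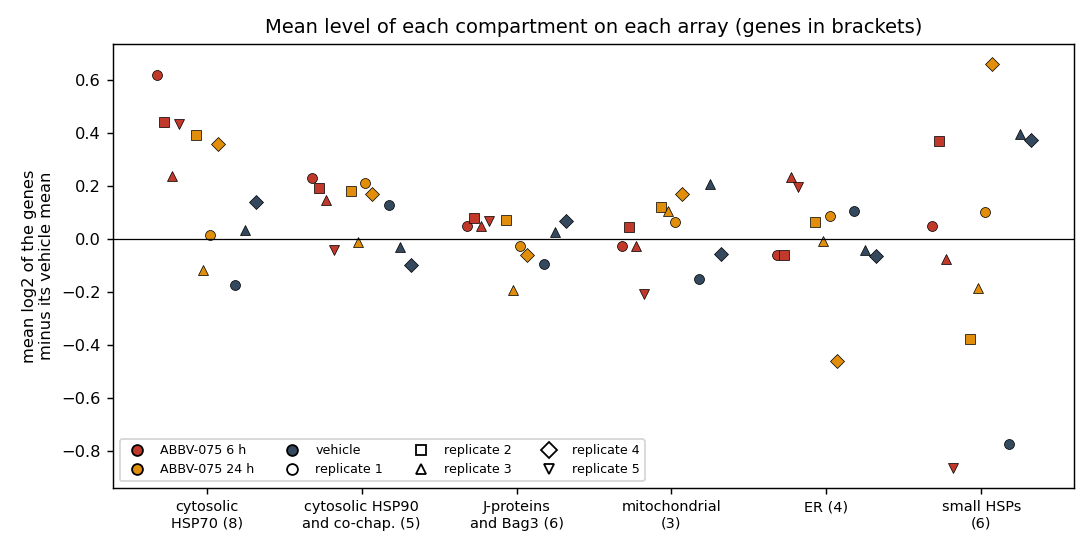
Mean log2 level of the genes of each compartment on each array, minus the mean of the vehicle arrays, for ABBV-075 at 6 h (red) and 24 h (orange) and vehicle skin (dark blue), with a marker for each replicate number. For the HSP70 family the 6 h arrays lie at 0.24 to 0.62 and the vehicle arrays at -0.17 to 0.14, while small heat shock proteins spread from -0.86 to 0.66 with vehicle replicate 1 at -0.77.

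The small heat shock proteins, which hold unfolding proteins in a state that HSP70 can rescue, had the widest spread between arrays of the compartment means. At 6 h, 2 of 6 were higher and at 24 h, 5 of 6, with medians of -0.16 and 0.066, and the fits without 1 array gave 1 to 5 higher at 6 h and 2 to 5 at 24 h. Hspb1, or HSP25, which is abundant in the epidermis, read 12.07, 11.63, 11.10 and 8.89 at 6 h, 11.37, 10.27, 10.74 and 11.92 at 24 h, and 11.33, 11.53 and 11.75 in vehicle skin. Replicate 5 at 6 h stood far below all other arrays. The difference was -0.61 ± 0.64 at 6 h (SE, adjusted p = 0.660), but 0.068 without replicate 5, and -0.46 ± 0.64 at 24 h (adjusted p = 0.868). Over the 11 arrays Hspb1 varied with the actin ratio (r = 0.778, permutation p = 0.0065, adjusted p = 0.0432, and rho = 0.464, permutation p = 0.15), which rested on the 2 arrays with the lowest ratios, since r was 0.0911 without them.

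Cryab, or αB-crystallin, is prominent in skeletal and heart muscle as well as the lens. It read 11.95, 12.27, 11.65 and 11.19 at 6 h, 11.80, 11.33, 11.19 and 12.45 at 24 h, and 10.65, 12.29 and 12.04 in vehicle skin. The groups overlapped fully, with vehicle replicate 1 lowest and replicate 4 at 24 h highest, and the differences were 0.10 ± 0.43 and 0.032 ± 0.43 (SE, adjusted p = 0.926 and 0.989). Leaving out vehicle replicate 1 turned both, to -0.40 at 6 h and -0.48 at 24 h, and without replicate 5 the 6 h difference was 0.30.

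Hspb6 (HSP20) and Hspb7, also muscle proteins, ranged over 9.81 to 11.91 and 7.23 to 9.81 among the 11 arrays, with differences between -0.37 and 0.083 at the 2 times. Without replicate 5 their 6 h differences were 0.14 and 0.011, and without vehicle replicate 1 they were -0.77 and -1.04. Hspb8, a partner of Bag3, read 10.25, 10.36, 9.94 and 10.54 at 6 h, 10.11, 10.46, 9.90 and 10.71 at 24 h, and 9.13, 10.25 and 10.14 in vehicle skin. Vehicle replicate 1 was again lowest, and the differences were 0.43 ± 0.29 and 0.45 ± 0.29 (adjusted p = 0.489 and 0.708), but 0.079 at 6 h and 0.098 at 24 h without that array. Other probe sets of Hspb8 gave 0.11 and -0.405 at 6 h, and 0.17 and 0.26 at 24 h. Hspb2, which lies beside Cryab on chromosome 9, differed by -0.13 ± 0.22 and 0.15 ± 0.22.

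Mouse skin carries a thin sheet of skeletal muscle. The mean level of 20 skeletal muscle genes was -0.66 to 0.30 at 6 h, -0.13 to 0.83 at 24 h and -0.68 to 0.45 in vehicle skin, relative to the vehicle mean. Hspb6 followed it (r = 0.920, permutation p = 1.3e-04, adjusted p = 0.00643 over 99 relations, and rho = 0.838, permutation p = 0.0019), with r = 0.811 without the 2 farthest arrays and 0.978 within groups. Hspb7 followed it as well (r = 0.843, permutation p = 0.0013, adjusted p = 0.0228, rho = 0.784, permutation p = 0.0059), with r = 0.629 without the 2 farthest arrays and 0.879 within groups. For Cryab r was 0.780 (permutation p = 0.0045, adjusted p = 0.0432, rho = 0.729, permutation p = 0.013), 0.558 without these arrays and 0.920 within groups. The adjusted permutation p of rho was 0.049 for Hspb6, 0.069 for Hspb7 and 0.094 for Cryab. Cryab also went with the basal keratinocyte mean, as given below. Hspb2 had r = 0.134 (permutation p = 0.70, rho = 0.246, permutation p = 0.46), and its correlation with its neighbour Cryab was -0.115 (permutation p = 0.74, rho = -0.20, permutation p = 0.56).

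**Figure D4:**
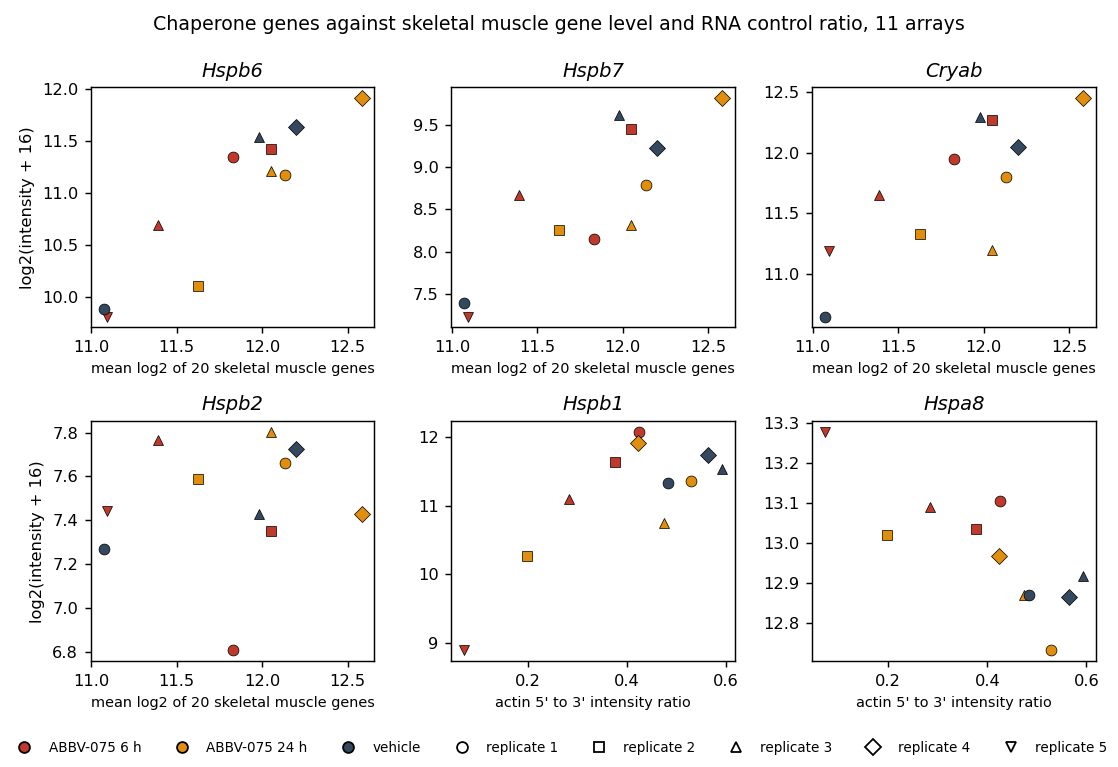
Level of 6 chaperone genes on each of the 11 arrays, in log2(intensity + 16), against the mean log2 level of 20 skeletal muscle genes (Hspb6, Hspb7, Cryab and Hspb2) or against the 5′ to 3′ intensity ratio of the actin control (Hspb1 and Hspa8), coloured by group with a marker for each replicate number. Hspb6, Hspb7 and Cryab climb with the muscle genes, Hspb1 is lowest on the array with the lowest actin ratio, and Hspa8 declines as the ratio increases.

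Of the 99 relations between the 33 genes and the muscle mean, the mean of 9 basal keratinocyte genes and the actin ratio, 6, 5 and 4 had an adjusted permutation p under 0.05 for Pearson's r (0.0064 to 0.043), 15 in all, of which 4 had one for Spearman's rho as well. Beside those above, the muscle mean went with Hspa9 (r = 0.917) and against Hspa14 (r = -0.848) and Hsp90b1 (r = -0.836). The keratinocyte mean went with Hspa9 (r = 0.842), Hspa1a (r = 0.777) and Cryab (r = 0.756) and against Dnajb9 (r = -0.822) and St13 (r = -0.770). The last of the 15 was Hspa14 with the actin ratio (r = -0.770). The 4 that also passed by rho were Hspb6 and Hsp90b1 with the muscle mean, and Hspa9 and Cryab with the keratinocyte mean. Cryab with the keratinocyte mean had rho = 0.855 (adjusted permutation p = 0.049), and r = 0.797 without the 2 farthest arrays. The relations of St13 and Dnajb9 with the keratinocyte mean and of Hspa14 with the actin ratio rested on the 2 farthest arrays, with r of -0.471, -0.323 and -0.407 without them. These measures are not independent, as the muscle and keratinocyte means themselves had a correlation of 0.699 over the 11 arrays.

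The 24 h arrays were also set against the 6 h arrays. In this comparison 13 of the 33 genes were higher at 24 h and 20 lower, with a median of -0.071, and 47.4% of all genes were higher. No gene was called (0%), and at an unadjusted p under 0.05 there was 1 lower member, Dnajb1, against 5.51% of all genes, and none higher, against 3.76%. In 3 members, Dnajb1, Hsp90aa1 and Hspa8, every 24 h array lay below every 6 h array, a share of 9.09% against 3.54% of all genes, and in none were they all above, against 1.92%. The differences were -0.36 ± 0.15 for Dnajb1 (SE, adjusted p = 0.500), -0.33 ± 0.15 for Hsp90aa1 (adjusted p = 0.542) and -0.23 ± 0.13 for Hspa8 (adjusted p = 0.649). Hspa1b differed by -0.47 ± 0.22 (adjusted p = 0.542), with overlap, and Hspe1 by 0.42 ± 0.24 in the other direction (adjusted p = 0.635). Since the 6 h arrays enter both, this comparison is not independent of that of 6 h with vehicle.

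In the HSP70 family 7 of 8 genes were lower at 24 h than at 6 h, with a median of -0.31. By their brightest probe sets, the 4 ER genes were all lower, by -0.11 to -0.23. The second bright probe set of Hsp90b1 was 0.23 higher, and the other sets of Dnajc3 gave 0.14, 0.31, -0.075 and 0.12. Of the small heat shock proteins 5 of 6 were higher, with a median of 0.21, beside a skeletal muscle list with 19 of 20 genes higher. Without replicate 4 at 24 h the median of the small heat shock proteins was -0.055 (3 of 6 higher) and that of the ER genes -0.035 (1 of 4 higher), and without replicate 5 at 6 h the small heat shock proteins had a median of -0.0087 (3 of 6 higher). The part of muscle content in this was not tested.

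Genes of related pathways gave the setting, none of them called at any time. Of 13 subunits of the TRiC chaperonin, which folds actin and tubulin, and of prefoldin, which feeds it, 12 were higher at 6 h (median 0.16) and 10 at 24 h (median 0.067). Cct4 differed by 0.40 ± 0.16 at 6 h (SE, adjusted p = 0.264) and Pfdn1 by 0.73 ± 0.30 at 24 h (adjusted p = 0.601). Of 17 other co-chaperones, 8 were higher at 6 h and 11 at 24 h. Among these, Hsbp1, which binds heat shock factor 1 and restrains it, differed by -0.77 ± 0.25 at 6 h (adjusted p = 0.203) and -0.59 ± 0.25 at 24 h (adjusted p = 0.630), Dnajc5 by 0.54 ± 0.18 at 6 h (adjusted p = 0.207), and Unc45a, a myosin chaperone, by 0.60 ± 0.29 at 6 h (adjusted p = 0.331).

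Other ER folding genes ran lower, with 2 of 14 higher at 6 h (median -0.27) and 3 of 14 at 24 h (median -0.090). This rested on vehicle replicate 1, whose list mean was 0.42 above the vehicle mean while the other 2 vehicle arrays stood at -0.21 and -0.22, against -0.56 to 0.091 at 6 h and -0.41 to 0.084 at 24 h. Without that array 7 of 14 were higher at 6 h (median -0.020) and 6 of 14 at 24 h (median -0.027). Sdf2l1, a partner of BiP, differed by -0.86 ± 0.38 (SE, adjusted p = 0.303) and the disulphide isomerase Pdia3 by -0.50 ± 0.27 (adjusted p = 0.388) at 6 h. Of 9 oxidative and heavy metal stress genes, 3 were higher at 6 h and 4 at 24 h. Srxn1, which repairs oxidised peroxiredoxins, differed by -0.88 ± 0.20 at 6 h (adjusted p = 0.137), and Hmox1, a heme-degrading enzyme that heat also induces, by -1.01 ± 0.35 at 24 h (adjusted p = 0.557). Of the proteasome subunits, 17 of 26 were higher at 6 h (median 0.063) and 18 of 26 at 24 h (median 0.11). Other mitochondrial chaperones and proteases had 4 of 8 higher at 6 h and 5 of 8 at 24 h. Of all genes, 50.4% were higher at 6 h (median 0.0037) and 47.6% at 24 h (median -0.020).

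Markers of the cell types of skin moved with the groups as well. All 9 basal keratinocyte genes were higher at both times, with medians of 0.57 and 0.56, but the list mean covered -0.20 to 1.25 at 6 h and -0.026 to 1.96 at 24 h, against -0.40 to 0.28 in vehicle skin. The median was 0.091 at 24 h without replicate 4 at 24 h, and 0.18 at 6 h without replicate 1 at 6 h. In the HSP70 family the correlation with this mean ranged from -0.53 to 0.78 with a median of 0.49, and that with the actin ratio, which was lower at 6 h than in vehicle skin, ranged from -0.82 to 0.37 with a median of -0.52 and was negative for 7 of the 8. Of the 20 skeletal muscle genes, 8 were higher at 6 h (median -0.049) and 19 at 24 h (median 0.31), but without vehicle replicate 1 these were 2 (median -0.34) and 10 (median -0.018). Suprabasal keratinocyte genes had medians of 0.13 and 0.0068 and smooth muscle genes of 0.013 and -0.0068. Medians were below 0 at both times for genes of fibroblasts (-0.38 and -0.63, 0 of 10 higher at either time), adipocytes (-0.98 and -0.68), endothelium (-0.61 and -0.65), macrophages and dendritic cells (-1.08 and -0.95) and the hair shaft (-1.06 and -0.45). Replicate 4 at 24 h was the lowest array of the fibroblast, adipocyte, endothelial and macrophage lists, with means of -2.03, -2.402, -1.23 and -2.74 relative to vehicle skin, and without it their 24 h medians were -0.21, -0.33, -0.35 and -0.32. Without vehicle replicate 4 the hair shaft medians were -0.26 at 6 h and 0.65 at 24 h. The 24 h value rested on replicate 2 at 24 h, whose list mean was 1.82 relative to the vehicle mean. The other 24 h arrays stood at -1.17 to -1.02, below vehicle replicates 1 and 3 (-0.73 and -0.92). None of these markers was called, no marker above the filter averaged at the floor of 4, and the part of cell composition in the chaperone values was not tested. With the actin ratio as a covariate, 7 of the 8 HSP70 family genes were higher at 6 h, with a median of 0.35. The ratio did not overlap between 6 h arrays (0.0725 to 0.425) and vehicle arrays (0.484 to 0.593). The fit therefore cannot tell the ratio and the drug apart at 6 h.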

How the data were processed

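The deposited table holds 1 intensity on a linear scale per probe set and array (45101 probe sets, 11 arrays), made by the authors. No source used here names the software, background method or scaling behind these intensities, and 12.9% to 16.6% of the values of an array lay below 0. A 3′ IVT kit amplified 200 ng of total RNA, per the labels' protocols. No reads were counted, so the number of arrays limits the precision.

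Here the intensities were quantile-normalized, set to at least 0 and taken as log2(intensity + 16). This scale understates the differences of dim genes. Annotation gave 1 gene for 34958 probe sets, several for 932 and none here for 9211. The brightest probe set, averaged over the arrays, stood for a gene (18194 genes), which was kept when it lay above the 40th percentile on at least 3 arrays (13710 genes). Groups were compared in 1 fit over all 11 arrays with limma 3.58.1 (lmFit, eBayes) in R 4.3.3, two-sided, with Benjamini-Hochberg adjustment over all genes kept and a threshold of 0.05. On simulated arrays with the spread of 6 h and vehicle, 37% of 100 genes changed by 1 log2 unit and 84% of 100 changed by 2 were called, with 5 unchanged genes. Correlations used 100000 permutations of the arrays (scipy 1.17.1). No other batch was named in the labels.

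The chaperone genes and all gene lists were chosen with earlier results of these data known. Every array is given in full for the best-known members (Hspa1a, Hspa1b, Hspa8, Hsp90aa1, Hspa5, Hspd1, Hspb1, Cryab) and the 5 with the smallest p in each comparison; Chordc1 was added after its values were seen. In other pathways up to 3 genes with the smallest p were named. Alternatives were no normalization, median scaling, cyclic loess, another pseudocount (64), no filter or the 60th percentile, other choices of probe set, array weights, a variance trend with robust fit, the actin ratio as a covariate, a replicate block and each array left out.

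The numbers 1, 3 and 4 occur in vehicle and 24 h labels. The deviations of these same-numbered arrays from their group means correlated at 0.246, 0.135 and 0.205, all above 0.1. The use of a block was inferred from these values. The block went by replicate number in every group, so it also joined 6 h arrays to same-numbered arrays of the other groups. Replicate 5 at 6 h had no partner and did not enter the differences of that fit. The same-numbered 6 h and vehicle arrays had -0.12 and -0.074, and those of 24 h and 6 h had -0.064, -0.35 and 0.17. The labels do not say whether mice shared a litter or day.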

Additional observations from a re-analysis of the deposited data

Results flagged for a closer look

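In 5 of the 66 groups of 4 arrays examined, 1 array lay far from the other 3 by Dixon's test, where chance flags about 1 in 20 groups. Hspa2 at 6 h was high in replicate 1, at 8.90 against 8.12 for the nearest of the others. Dnaja1 at 6 h was also high in replicate 1, at 10.74 against 10.46. Stip1 at 6 h was low in replicate 5, at 8.10 against 8.91, and St13 was high on the same array, at 11.10 against 10.63. Replicate 5 at 6 h is the array with the lowest actin and Gapdh 5′ to 3′ ratios (0.0725 and 0.104). Dnajb9 at 24 h was low in replicate 4, at 9.002 against 9.89, and this array had the highest means of the skeletal muscle and basal keratinocyte genes (0.83 and 1.96 above the vehicle mean).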

How the results depend on the processing

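The results that ask how many genes pass the test depended on the processing. Genes called at 6 h numbered 0 in the analysis reported, 855 with the intensities as deposited, 18 with no filter, 7 with the mean of all probe sets, 2498 with array weights and 1 with the replicate number as a block, and 0 to 23 when 1 array was left out (23 without replicate 4 at 24 h, 2 without replicate 2 at 6 h). At 24 h they numbered 6 as deposited, 1 with no filter, 59 with array weights and 0 to 1 without 1 array (1 without replicate 2 at 6 h). For 24 h minus 6 h they numbered 2 with the mean of all probe sets, 1 when x_at and s_at sets were left out, 423 with array weights, 1 with the actin ratio as a covariate and 0 to 7 without 1 array (7 without replicate 5 and 1 without replicate 2 at 6 h, 1 without replicate 2 at 24 h). Chaperone genes called went to 6 at 6 h with array weights and were 0 under every other alternative. The median difference of the 33 was -0.55 at 6 h and -0.60 at 24 h as deposited, and -0.16 at 24 h and -0.30 for 24 h minus 6 h with arrays scaled to a common median. Without 1 array it ran from 0.079 to 0.19 at 6 h, -0.030 to 0.14 at 24 h and -0.11 to -0.040 for 24 h minus 6 h. The replicate block moved no chaperone gene across the threshold, and the median at 6 h was 0.19 with it.

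Over 23 alternatives, 2274 differences of single genes were recomputed, of which 2044 kept their direction and side of the threshold, 6 were newly called and 224 had the other sign. Of the 99 differences, 79 had the other sign somewhere, and the cause was not tested. Each value that follows is the log2 difference of the named gene under an alternative that turned its sign. With the intensities as deposited, the values for 6 h minus vehicle were Hspa1a -0.23, Hspa2 -0.27, Hspa4 -0.68, Hspa4l -0.33, Hspa8 -0.058, Hspa14 -0.46, Hsph1 -0.31, Hsp90aa1 -0.070, Stip1 -0.50, Chordc1 -0.54, Dnaja2 -0.46, Dnajb1 -0.37, Dnajb6 -0.67, Hspd1 -0.67, Hspa5 -0.24, Dnajb9 -0.67, Hspb8 -0.32, Cryab -0.47 and Hsf2 -0.24; for 24 h minus vehicle they were Hspa1a -0.59, Hspa1b -0.32, Hspa2 -0.63, Hspa4l -0.12, Hspa8 -0.34, Hsph1 -0.29, Hsp90aa1 -0.44, Stip1 -0.33, Ahsa1 -0.62, Chordc1 -0.51, Dnaja2 -0.57, Dnajb1 -0.70, Hspa9 -0.52, Hspe1 -0.49, Hspa5 -0.44, Hspb2 -0.51, Hspb6 -0.60, Hspb7 -0.69, Hspb8 -0.29, Cryab -0.57 and Hsf2 -0.035; for 24 h minus 6 h they were Hsph1 0.023 and Chordc1 0.030. With the actin ratio as a covariate, the values for 6 h minus vehicle were Hspa14 -0.17, Ahsa1 0.018, Dnajb6 -0.12, Hspa9 0.37, Hspa5 -0.026, Dnajb9 -0.25, Dnajc3 0.26, Hspb1 0.96, Hspb6 1.04 and Hspb7 0.60; for 24 h minus vehicle they were Hspa2 -0.078, Hspa4 0.035, Hspa8 -0.074, Hspd1 0.14, Hspe1 -0.052, Dnajc3 0.013 and Hspb1 0.40; for 24 h minus 6 h they were Stip1 -0.030, Chordc1 0.034, Hspa5 0.028, Hspb1 -0.56, Hspb6 -0.28 and Hspb7 -0.020. With array weights, the values for 6 h minus vehicle were Ahsa1 0.10, Dnajb6 -0.062, Dnajb9 -0.15 and Cryab -0.025; for 24 h minus vehicle they were Hspa1a -0.11, Hspa2 -0.28, Hspa8 -0.076, Dnajb1 -0.086, Hspb6 -0.31, Hspb7 -0.68 and Cryab -0.48; for 24 h minus 6 h they were Hspa4l -0.36, Stip1 -0.12, St13 0.26, Dnajb4 -0.10, Bag3 -0.0099, Hspa5 0.024, Dnajb9 0.12, Hspb1 -0.40, Hspb6 -0.12, Hspb7 -0.31 and Hspb8 -0.17. With arrays scaled to a common median, the values for 6 h minus vehicle were Hspa4 -0.0098 and Hsp90b1 0.13; for 24 h minus vehicle they were Hspa1a -0.16, Hspa2 -0.22, Hsp90aa1 -0.00026, Ahsa1 -0.19, Chordc1 -0.072, Dnaja2 -0.13, Dnajb1 -0.27, Hspa9 -0.081, Hspe1 -0.051, Hspb2 -0.10, Hspb6 -0.16, Hspb7 -0.26 and Cryab -0.13; for 24 h minus 6 h they were Hspa4l -0.0080, Stip1 -0.054, Dnajb4 -0.15, Bag3 -0.064, Hspb1 -0.0095 and Hspb8 -0.22. With the replicate number as a block, the values for 6 h minus vehicle were Ahsa1 0.10, Dnajb6 -0.021, Hspa9 0.19, Dnajb9 -0.29, Dnajc3 0.060, Hspb1 0.43, Hspb6 0.57 and Hspb7 0.28; for 24 h minus vehicle they were Hspa2 -0.016; for 24 h minus 6 h they were Hspa4l -0.0065, Stip1 -0.18, St13 0.18, Chordc1 0.032, Bag3 -0.022, Hspa5 0.000072, Dnajb9 0.083, Hspb1 -0.73, Hspb6 -0.32, Hspb7 -0.21 and Hspb8 -0.0049. With the mean of all probe sets, the values for 6 h minus vehicle were Ahsa1 0.053, Dnaja1 0.045, Dnajb6 -0.013, Hspa9 0.084, Hsp90b1 0.012 and Cryab -0.10; for 24 h minus vehicle they were Hspa8 -0.011, Hspa14 0.044, Dnajb4 0.019, Dnajb6 0.10 and Hsp90b1 0.052; for 24 h minus 6 h they were Hspa4l -0.0049, Hsph1 0.13, Dnajb6 0.12, Hspa9 -0.011, Hsp90b1 0.040, Dnajc3 0.076, Cryab 0.22 and Hsf2 -0.027. With cyclic loess, the values for 6 h minus vehicle were Hspd1 -0.011; for 24 h minus 6 h they were Chordc1 0.022. With x_at and s_at sets left out, the values for 24 h minus vehicle were Dnaja2 -0.048.

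Leaving out 1 array at a time also turned signs, and the lowest and highest values follow. For 6 h minus vehicle the ranges were Ahsa1 -0.33 to 0.088, Dnajb4 -0.18 to 0.069, Hspa9 -0.15 to 0.092, Hspd1 -0.034 to 0.21, Hsp90b1 -0.17 to 0.10, Dnajb9 -0.11 to 0.25, Dnajc3 -0.10 to 0.040, Hspb1 -0.99 to 0.068, Hspb2 -0.27 to 0.046, Hspb6 -0.77 to 0.14, Hspb7 -1.04 to 0.067 and Cryab -0.40 to 0.42. For 24 h minus vehicle the ranges were Hspa1a -0.030 to 0.32, Hspa2 -0.21 to 0.31, Hspa8 -0.028 to 0.068, Hspa14 -0.26 to 0.088, Ahsa1 -0.066 to 0.41, Dnajb1 -0.075 to 0.14, Dnajb4 -0.090 to 0.080, Bag3 -0.23 to 0.057, Hspd1 -0.13 to 0.034, Dnajb9 -0.25 to 0.089, Hspb6 -0.48 to 0.41, Hspb7 -0.63 to 0.48 and Cryab -0.48 to 0.35. For 24 h minus 6 h the ranges were Hspa4l -0.12 to 0.26, Hsph1 -0.11 to 0.070, Stip1 -0.12 to 0.19, St13 -0.18 to 0.12, Chordc1 -0.071 to 0.037, Dnajb4 -0.078 to 0.17, Bag3 -0.028 to 0.25, Dnajb9 -0.40 to 0.013, Hspb1 -0.53 to 0.53, Hspb6 -0.056 to 0.61, Hspb8 -0.12 to 0.15, Cryab -0.32 to 0.10 and Hsf2 -0.092 to 0.14.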
